A study of Triticum aestivum with 4 samples.

Results

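The response of Luohan No.2 wheat roots to osmotic stress was read from 2 of the 4 arrays of the study, 1 from roots of seedlings held in polyethylene glycol (PEG) 6000 and 1 from roots of seedlings held in tap water. Both groups were common wheat (Triticum aestivum) of the cultivar Luohan No.2, raised in Petri dishes at 25 °C with 14 h of light to the stage of a second leaf. The PEG group had spent 6 h at an osmotic potential of -0.49 MPa, and the water group was not stressed. The other 2 arrays held PEG and water roots of the cultivar Chinese Spring and are given here only as values beside those of Luohan No.2. Each group was 1 array, so no fold below has an error between plants, no test was made, and how many seedlings went into an RNA sample is not given in the labels.

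PEG of high molecular weight does not pass the cell wall and lowers the water potential around the root, so that water uptake slows as it does in drying soil. Roots of cereals are known to answer with abscisic acid signalling, and with late embryogenesis abundant (LEA) proteins and dehydrins that protect membranes and enzymes as cells lose water. Other known parts of the response are the mobilisation of soluble sugars, the adjustment of cell wall growth, and ion transport across the plasma membrane and the vacuole.

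All 61290 probe sets of the wheat array were read, 111 AFFX controls and 64 RPTR reporter probe sets were set aside, and 61115 entered the comparison. Signals were the deposited MAS5 intensities, floored at 25 before the log2 ratio of PEG over water was taken. A gene below 25 on 1 array therefore has only a lower bound on its fold, and a gene below 25 on both has none. At least 1 of the 2 arrays had a signal of 100 or more, called bright here, for 14675 probe sets (24.0%), while 34807 (57.0%) lay at or below the floor on both. Around the limit of 100, PEAMT1, with 105.9 in PEG and 97.3 in water, was the named gene just inside it, and THI1.1, with 93.6 and 80.1, was the one just outside.

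Markers of other tissues were low, apart from the Rubisco gene rbcl. Of 5 green tissue genes found on the array, PsbP, PRK and petC were below 25 on both Luohan No.2 arrays, PsbO had a signal of 17.6 in PEG and 50.3 in water, and rbcl, by a probe set marked for cross-hybridisation, had 2678.3 in PEG and 2880.2 in water. In Chinese Spring petC had 129.3 in PEG and 288.7 in water. Summed over the 5, the signal was 2716.4 in PEG and 2963.3 in water. All 6 seed genes found were below the floor, with sums of 60.2 in PEG and 28.9 in water. Of 3 genes listed for roots, TaDMAS1 had 347.4 in PEG and 419.3 in water, whereas TaALMT1 and WGA2 were below the floor, so these genes give little evidence on the tissue label.

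By the brightest probe set of each named gene, with signals floored at 25, the largest ratios were those of the dehydrin Rab15 and the LEA protein LEA1, both higher in PEG. A second probe set of the alpha-tubulin gene TUBA had a larger ratio, 27.8-fold lower. Among all 61115 probe sets, 1627 (2.66%) had a PEG signal at least 2-fold above water and 2434 (3.98%) one at least 2-fold below it. Of the 14675 with a signal of 100 or more, 1179 (8.03%) were higher and 1663 (11.3%) lower. At 4-fold there were 243 higher and 381 lower, at 8-fold 71 and 104, and at 16-fold 25 and 21, so that the lower side was the longer at each step except 16-fold. The median log2 ratio of the 14675 was 0.04, its quartiles were -0.47 and 0.47, and 58.7% were within 1.5-fold.

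**Figure D1:**
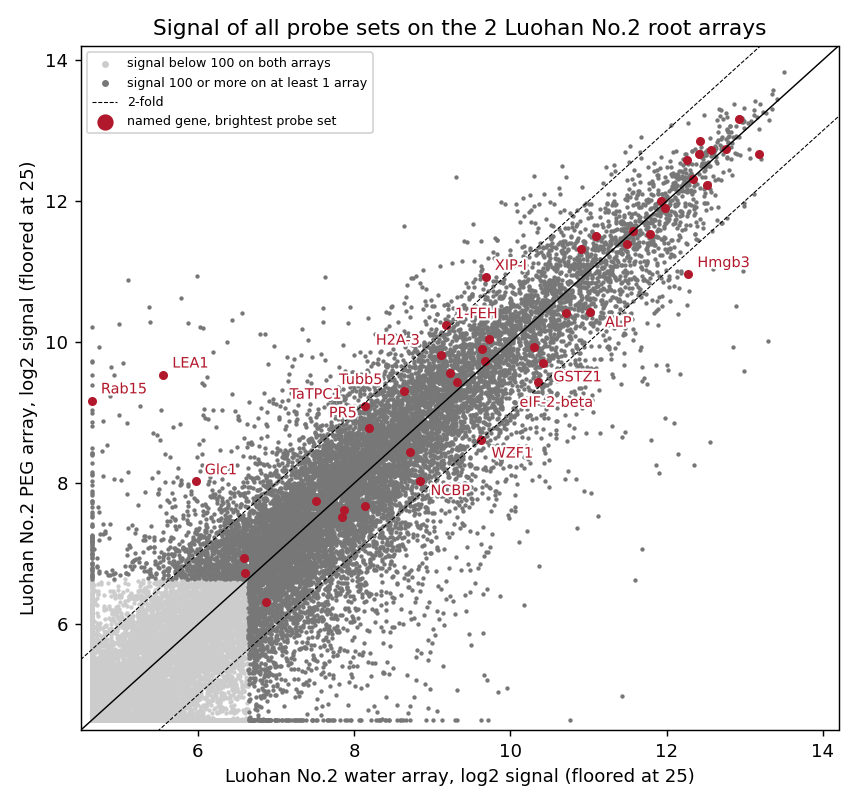
Signal of each of the 61115 probe sets on the Luohan No.2 PEG array (vertical axis) against the water array (horizontal axis), both log2 and floored at 25; red points are named genes by their brightest probe set, and names are given at 1.5-fold or more. Rab15, LEA1 and Glc1 lie far above the upper 2-fold line, while Hmgb3 lies below the lower one.

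Transcripts that crossed the whole range from background to a clear signal were found in both directions. A signal at or below 25 in water and of 100 or more in PEG was seen for 76 probe sets, whose PEG signals had a median of 151.7 and a highest value of 1184.6. The opposite was seen for 109 probe sets, whose water signals had a median of 145.9 and a highest value of 1743.6. Probe sets were also classed by the higher of their 2 signals. The SD of the log2 ratios was 0.84 between signals of 100 and 200, 1.01 between 500 and 1000, and 0.75 at 5000 or more. At 5000 or more, 14 of 269 probe sets were at least 2-fold higher and 15 lower. The floor of 25 limits how large a ratio a fainter class can hold, so no trend with brightness is read from these SDs.

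The balance of higher and lower signals depended on the kind of probe set. Names that end in _at mark probe sets designed to be unique, while _a_at, _s_at and _x_at mark probes shared by forms of 1 gene, by several transcripts, or partly by other sequences. Among 8561 unique probe sets with a signal of 100 or more, 825 (9.64%) were higher by 2-fold or more and 714 (8.34%) lower, with a median log2 ratio of 0.13. Among 6114 of the other kinds, 354 (5.79%) were higher and 949 (15.5%) lower, with a median of -0.11. The _a_at class was the most one-sided, at 65 higher and 382 lower of 2080. Over the same probe sets in Chinese Spring, the counts were 649 higher and 700 lower for the unique kind, 403 and 402 for the others together, and 110 and 100 for the _a_at class.

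**Figure D2:**
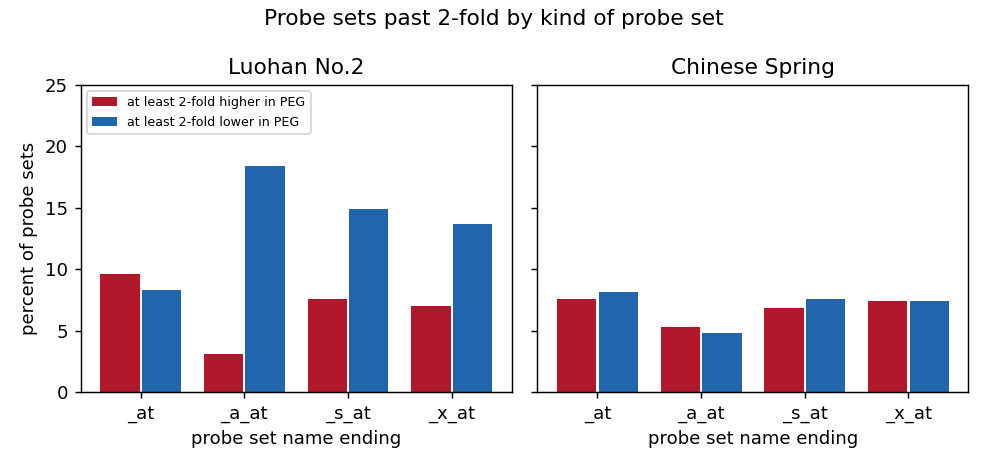
Percent of probe sets at least 2-fold higher (red) or lower (blue) in PEG by the ending of the probe set name, in Luohan No.2 (left) and Chinese Spring (right), over the 14675 probe sets with a Luohan No.2 signal of 100 or more. In Luohan No.2 lower signals outnumber higher ones in the _a_at, _s_at and _x_at classes and not in the _at class.

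Control probe sets placed along single transcripts differed between the 2 Luohan No.2 arrays as well. The sucrose synthase control had a log2 ratio of PEG over water of -0.92 at its 3' end, -2.16 in the middle and -2.27 at its 5' end. For glucose-6-phosphate dehydrogenase these values were 0.02, -0.39 and -0.61, and for ubiquitin 0.26, 0.19 and -0.36. These 3 controls were thus lower in PEG at the 5' end than at the 3' end, relative to water. The ratio of 5' to 3' signal for sucrose synthase was 0.0216 in PEG and 0.0554 in water in Luohan No.2, against 0.0693 in PEG and 0.0805 in water in Chinese Spring. For glucose-6-phosphate dehydrogenase it was 0.243 in PEG and 0.375 in water in Luohan No.2, while Chinese Spring had 0.388 in PEG and 0.390 in water. For ubiquitin it was 1.59 in PEG and 2.45 in water in Luohan No.2, while Chinese Spring had 2.73 in PEG and 3.50 in water. The ratio of a further control, CYP86, was lower in PEG in Chinese Spring as well, at 0.227 in PEG and 0.524 in water, while its 5' probe set was below the floor on both Luohan No.2 arrays. The 18 hybridisation control probe sets, for transcripts spiked into the labelled sample, were all higher on the PEG array, with a median log2 ratio of 0.48 and a range of 0.23 to 0.85. In Chinese Spring their median was -0.09. These 18 probe sets read only the transcripts bioB, bioC, bioD and cre. The 3' probe sets of other control transcripts were lower on the Luohan No.2 PEG array. Their log2 ratios were -0.66 for dap, -1.05 for lys, -0.21 for phe and -0.92 for thr, so the control sets did not share 1 shift. Scaling the PEG array to the 18 hybridisation controls was a choice made after the data were seen. It shifted the median log2 ratio of bright probe sets to -0.49 and gave 401 higher and 3371 lower. The share of lower calls was then 89.4%, against 58.5% on the deposited scale, and every ratio in the text is relative to the deposited scale. The part of these differences in the lower signals on the PEG array was not tested.

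**Figure D3:**
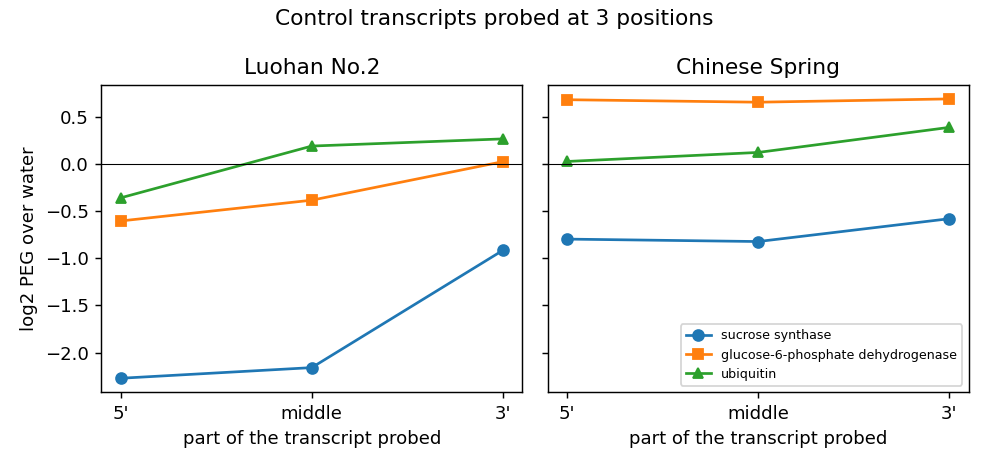
Log2 ratio of PEG over water for 3 control transcripts, each probed at its 5' end, middle and 3' end, in Luohan No.2 (left) and Chinese Spring (right). In Luohan No.2 all 3 lines are lower at the 5' end than at the 3' end, from -2.27 to -0.92 for sucrose synthase.

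The platform annotation paired 1273 of the 61115 probe sets with a gene, 771 genes in all, and the RefSeq table of wheat genes held 770 of them. An informative name, as symbol or synonym, existed for 102 genes and a locus number alone for 669. By the brightest probe set of each gene, 454 genes had a signal of 100 or more, and 51 of these (11.2%) were higher by 2-fold or more and 43 (9.47%) lower. Of the 102 named genes, 46 had a signal of 100 or more, and 5 of them were at least 2-fold higher, 1 was lower, and 31 were within 1.5-fold. Among the 5, Rab15, LEA1 and Glc1 reached 100 only on the PEG array, so their direction followed from passing the limit. The rest of the 5 were XIP-I and 1-FEH, with log2 ratios of 1.24 and 1.06. Scaled on the hybridisation controls these were 0.76 and 0.59, short of 2-fold. Another 13 named genes lay between the floor and 100, and 43 were at or below the floor on both arrays. Transcripts of homoeologous genes on the A, B and D genomes can share probes, so a probe set need not read 1 gene copy.

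**Figure D4:**
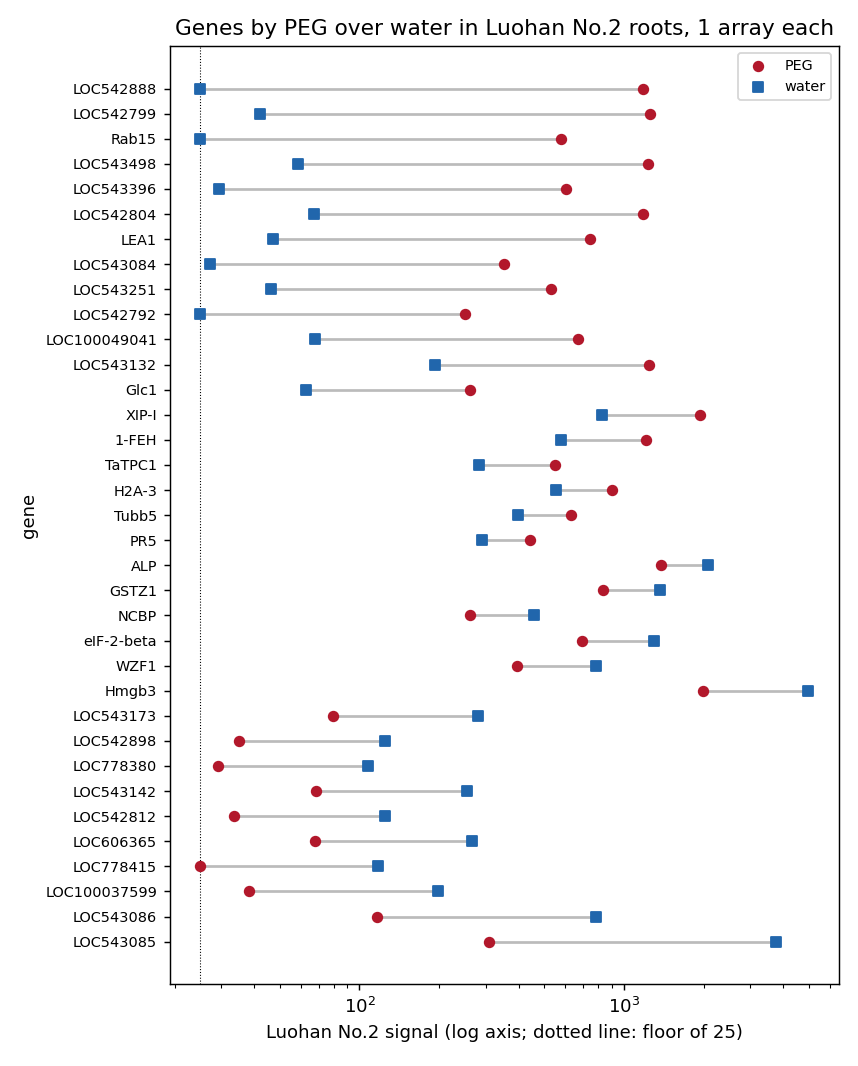
Signal on the Luohan No.2 PEG array (red circles) and water array (blue squares), on a log axis with values under 25 drawn at 25, for the 15 named genes at 1.5-fold or more and for the 10 highest and 10 lowest locus-number genes by ratio. Genes are ordered by ratio, from LOC542888, at least 47.4-fold higher in PEG, to LOC543085, 12.2-fold lower.

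LEA proteins and dehydrins are hydrophilic proteins that accumulate in maturing seeds and in dehydrated tissue. Rab15, a dehydrin that responds to abscisic acid, had a signal of 577.1 in PEG and 17.4 in water, a difference of at least 23.1-fold. Its 2 other probe sets had 312.4 and 134.3 in PEG against 20.1 and 1.9 in water, at least 12.5-fold and 5.37-fold, so all 3 were below the floor in water and above 100 in PEG. LEA1, of the LEA proteins of group 3, had 743.7 in PEG and 47.1 in water, 15.8-fold higher, by a single probe set marked for cross-hybridisation. The list held 3 more genes on the array, EMH2, EM and COR410, and none of them reached 25 on either array. Rab15 and LEA1 passed the limit of 100 only through the PEG array, so their direction followed from passing it. No count or median of this list is drawn from them, though both are in the count of named genes given above. In Chinese Spring Rab15 had 2736.1 in PEG and 10.1 in water, and LEA1 had 2820.6 in PEG and 40.5 in water.

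Enzymes acting on sugars and wall polymers gave mixed values. Glc1, of the wall and glucoside hydrolase list, had 260.7 in PEG and 62.8 in water, a 4.15-fold difference, but its other probe set was below the floor on both arrays. TaGlu1a, a beta-glucosidase, had 205.7 in PEG and 280.8 in water, while in Chinese Spring it had 303.6 in PEG and 86.3 in water. XTH, which cuts and rejoins the xyloglucan of the wall, had 19.7 in PEG and 76.3 in water, at least 3.05-fold lower at signals under 100. The fructan exohydrolase 1-FEH, which frees fructose from fructan stores, had 1207.6 in PEG and 578.0 in water, 2.09-fold higher, where Chinese Spring had 700.5 and 615.2. The second fructan exohydrolase, 6-FEH, was below the floor by all of its probe sets. The starch synthesis gene AGP-S had 183.6 in PEG and 229.9 in water, a log2 ratio of -0.32.

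Proteins of defence were higher or near their water level. XIP-I, an inhibitor of fungal xylanases, had 1943.3 in PEG and 824.1 in water, 2.36-fold higher, and its second probe set had 1912.8 and 779.3, 2.45-fold higher. PR5, a thaumatin-like protein, had 440.3 in PEG and 291.2 in water, 1.51-fold higher, whereas Chinese Spring had 97.3 in PEG and 123.3 in water. For the antimicrobial thionins, log2 ratios at signals under 100 were 0.49 for THI1.2 and 0.22 for THI1.1, and the lectin WGA2 was below the floor. Of the 5 defence genes on the array, 2 had a signal of 100 or more, and 1 of these, XIP-I, was past 2-fold, where 11.2% of the 454 bright annotated genes were higher and 9.47% lower.

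Of the transport proteins, the vacuolar cation channel TaTPC1, which passes calcium, had 547.4 in PEG and 282.9 in water. This 1.93-fold difference lay just short of 2-fold, and Chinese Spring had 597.6 in PEG and 391.0 in water. The plasma membrane proton pump ha1, which energises ion uptake, had 6488.2 in PEG and 5444.4 in water by its brightest probe set, and its 3 probe sets had log2 ratios between 0.25 and 0.51. The corresponding brightest value in Chinese Spring was 4802.1 in PEG and 7068.5 in water, a log2 ratio of -0.56. The hybridisation controls were shifted by 0.48, so the direction of the brightest ha1 probe set, like that of any ratio between 0 and 0.48, depends on the scaling. TaALMT1, a malate channel of root tips, was below the floor in Luohan No.2.

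Hmgb3, a high mobility group protein of chromatin, had the lowest ratio of the named genes with a signal of 100 or more when each was read by its brightest probe set. It had 1997.1 in PEG and 4967.3 in water, 2.49-fold lower, but its second probe set had 1697.6 and 2178.9, 1.28-fold lower, and both are marked for cross-hybridisation. WZF1, a zinc finger protein, had 393.6 in PEG and 786.8 in water, 1.999-fold lower and thus just short of 2-fold, and its values in Chinese Spring were 493.5 and 908.0. TBP1, the TATA-binding protein of the basal transcription machinery, had 197.8 in PEG and 235.1 in water.

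Among the histone genes, H2A-3 had 899.0 in PEG and 552.7 in water, 1.63-fold higher, and its second probe set, under 100, had 85.9 and 41.1, 2.09-fold higher. All 6 probe sets of H2A-9 had log2 ratios between 0.33 and 0.67, whereas H2A-2 had 79.5 in PEG and 116.7 in water, a log2 ratio of -0.55. The H2B genes wcH2B-6 and wcH2B-8 had 0.32 and 0.27 by their brightest probe sets. Scaled on the hybridisation controls, the log2 ratios by brightest probe set were 0.23 for H2A-3, -0.07 for H2A-9, -0.15 for wcH2B-6 and -0.21 for wcH2B-8, so the direction of the last 3 depends on the scaling. The histone and HMG list, which does not hold the H2B genes, had 4 bright members, and 1 of them, Hmgb3, was past 2-fold. H2A-2 reached 100 only on the water array, so its direction followed from passing the limit. The list median of -0.07 includes H2A-2, so no direction is read from it. Over the 454 bright annotated genes, 11.2% were higher by 2-fold or more and 9.47% lower. In Chinese Spring the log2 ratios of H2A-3, H2A-9, wcH2B-6 and wcH2B-8 were -0.36, -0.26, -0.11 and -0.08.

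None of the 3 members of the translation list, eIF4E, TEF1 and Eif4B, was past 2-fold, where 11.2% of the 454 bright annotated genes were higher and 9.47% lower. Outside that list, the initiation factor eIF-2-beta, part of the complex that delivers the initiator tRNA, had 696.0 in PEG and 1303.3 in water, 1.87-fold lower. NCBP, which binds the cap of messenger RNA, had 262.8 in PEG and 458.0 in water, 1.74-fold lower, whereas Chinese Spring had 337.7 in PEG and 243.5 in water. Smaller negative log2 ratios were found for the cap-binding factor eIF4E at -0.30, the elongation factor TEF1 at -0.30 and TCTP, an abundant growth-related protein, at -0.52. Eif4B had 0.13 and the ribosomal protein gene RPS29 0.24, although a second RPS29 probe set had 97.8 in PEG and 12.9 in water. The median of the 3 listed members was -0.30.

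Tubulins build the microtubules of dividing and elongating root cells and profilin binds actin, and all 7 genes of the list were bright. By the brightest probe set none was past 2-fold, where 11.2% of the 454 bright annotated genes were higher and 9.47% lower. The median log2 ratio of the 7 was 0.07, with a range of -0.03 to 0.66. Tubb5 was the highest, with 632.6 in PEG and 399.0 in water, yet its 4 probe sets had ratios between -0.07 and 0.67. The alpha-tubulin gene TUBA had 5089.4 in PEG and 5189.6 in water by 1 probe set and 32.9 in PEG and 914.5 in water by the other, a 27.8-fold difference that is among the 10 lowest ratios of the array with signals floored at 25. PRO1, a profilin, had a log2 ratio of -0.02 by 1 probe set and -0.85 by the other. In Chinese Spring the second probe sets of TUBA and PRO1 had -1.15 and -0.02.

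Enzymes of detoxification were few. All 3 probe sets of GSTZ1, a zeta class glutathione transferase, were lower in PEG, and the brightest had 832.4 in PEG and 1362.8 in water, 1.64-fold lower. In Chinese Spring this probe set had 1060.5 in PEG and 944.9 in water. PER1, a peroxidase, had 51.6 in PEG and 37.8 in water, while its second probe set had 18.2 and 32.1. CAT1, a catalase, lgul, of methylglyoxal removal, and the thioredoxin Trx-M were below the floor on both arrays.

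Most of the remaining metabolic genes had small ratios in Luohan No.2. SAHH, which recycles the by-product of methylation, had 9187.1 in PEG and 7786.9 in water, a log2 ratio of 0.24. PEAMT1, which makes the precursor of choline and so of glycine betaine, had a log2 ratio of 0.12 in Luohan No.2, while Chinese Spring had 327.2 in PEG and 80.2 in water, or 2.03. PIMT, which repairs aged proteins, had 27.5 in PEG and 33.8 in water in Luohan No.2, against 115.2 in PEG and 19.1 in water in Chinese Spring. COMT1, of lignin synthesis, had 0.42, AdSS, of adenine nucleotide synthesis, 0.34, and Pgk-1, of glycolysis, 0.35. The cysteine synthesis gene cys1 had -0.07, the adenine salvage gene APT1 -0.25 and the protein-folding gene FKBP70 -0.38. The avenin-like gene ALP had 1374.6 in PEG and 2084.1 in water, 1.52-fold lower, by 1 of its 4 probe sets. Its other probe sets were below the floor on both arrays.

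Chelator and gibberellin genes were faint or flat. TaDMAS1, of mugineic acid synthesis for iron uptake, had log2 ratios between -0.55 and 0.06 over 3 probe sets, and TaPCS1, which makes metal-binding phytochelatins, had 90.0 in PEG and 84.9 in water. GA20ox1d, of gibberellin synthesis, had 52.8 in PEG and 15.1 in water, at least 2.11-fold higher at signals under 100, but its second probe set was below the floor. GA20ox1b had 37.7 and 21.0 and GA20ox1a 27.7 and 17.2. Among the photosynthesis genes, PsbO was at least 2.01-fold lower under 100, and rbcl had a log2 ratio of -0.10.

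**Figure D5:**
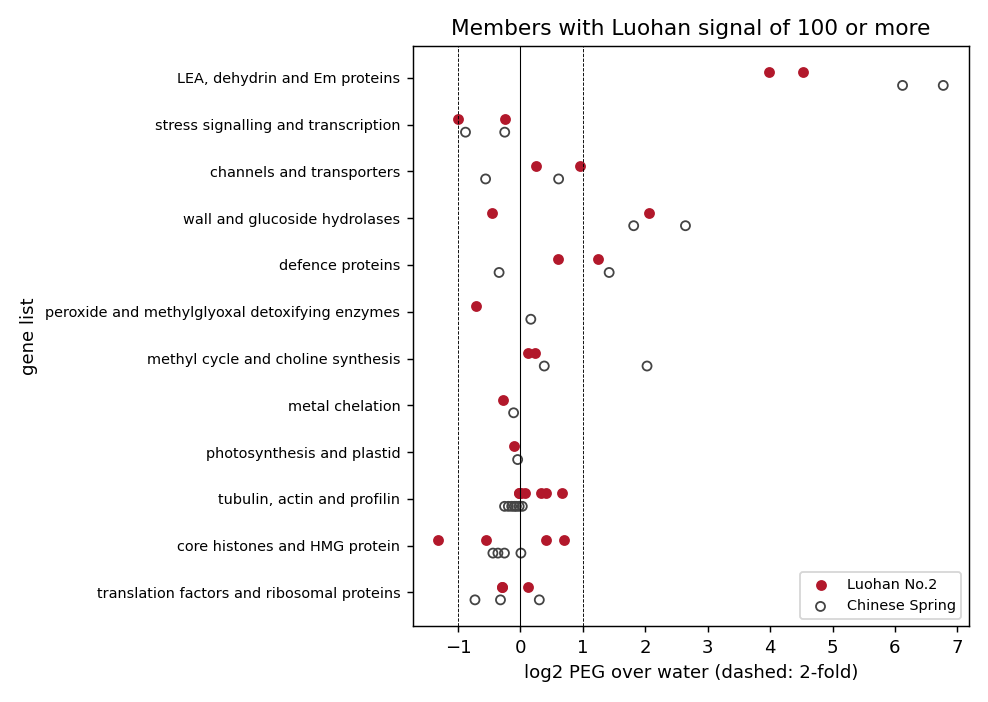
Log2 ratio of PEG over water for each gene list member with a Luohan No.2 signal of 100 or more, in Luohan No.2 (red, filled) and Chinese Spring (open), by brightest probe set, with dashed lines at 2-fold. In Luohan No.2 the LEA list stands at 3.98 for LEA1 and at a lower bound of 4.53 for Rab15, and the members of 8 of the 12 lists shown lie within 2-fold. Of the 454 bright annotated genes, 11.2% were at least 2-fold higher and 9.47% lower.

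Of 408 genes known only by locus number with a signal of 100 or more, 46 were higher by 2-fold or more and 42 lower, with a median log2 ratio of 0.07. Over all 454 bright annotated genes the shares were 11.2% higher and 9.47% lower, also with a median of 0.07. The genes described next are the extremes of these 408. LOC542888 had 1184.6 in PEG and 2.5 in water, at least 47.4-fold higher, and its second probe set had 40.6 and 2.5. LOC542799 had 1249.7 in PEG and 42.0 in water, 29.8-fold higher, and 836.3 and 33.0 by its second probe set. LOC543498 had 1234.1 in PEG and 58.8 in water, 21.0-fold higher, although its second probe set was below the floor. These 3 genes were faint in water and bright in PEG. LOC543396, LOC542804, LOC543084, LOC543251, LOC542792, LOC100049041 and LOC543132 completed the 10, with folds between 6.45 and 20.6, that of LOC542792 being a lower bound. Of the 10, only LOC543132, with 193.7 in water, reached 100 on both arrays. The direction of the others followed from passing the limit. All 10 were also higher in PEG in Chinese Spring, with log2 ratios of at least 2.31. Of all 14675 bright probe sets, 7.17% were at least 2-fold higher there.

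The lower side of the locus-number genes was led by LOC543085, with 307.8 in PEG and 3740.2 in water, 12.2-fold lower. LOC543086 followed with 116.0 in PEG and 781.5 in water, 6.74-fold lower. In Chinese Spring LOC543085 had 167.6 in PEG and 1764.5 in water, and LOC543086 had 186.8 and 491.0. LOC778415 was at least 4.71-fold lower, with 4.7 in PEG and 117.8 in water. The other 7 were between 3.51-fold and 5.19-fold lower, at water signals of 107.7 to 279.7. They were LOC100037599, LOC606365, LOC542812, LOC543142, LOC778380, LOC542898 and LOC543173. On this side only LOC543085 and LOC543086 reached 100 on both arrays, so the direction of the others followed from passing the limit. The ratio of LOC100037599 was -2.38 by its _a_at probe set and -0.87 by its unique one. LOC542898 stood apart, with 35.0 in PEG and 124.7 in water in Luohan No.2 and 6049.2 in PEG and 1966.4 in water in Chinese Spring.

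Most of the extreme probe sets have no gene in the annotation used here, namely 18 of the 25 that were at least 16-fold higher and 20 of the 21 that were at least 16-fold lower. Ta.226.1.S1_at had 1881.3 in PEG and 34.3 in water, 54.8-fold higher, and Chinese Spring had 3452.2 in PEG and 4.8 in water. TaAffx.128555.1.S1_at had 1230.4 in PEG and 31.9 in water, 38.6-fold higher. On the lower side, sequence cluster Ta.9401 held the pair of lowest ratios with signals floored at 25. Its probe set Ta.9401.3.S1_x_at had 31.6 in PEG and 2755.4 in water, 87.2-fold lower, and Ta.9401.3.S1_at had 3.7 and 1743.6, at least 69.7-fold lower. The 3 further bright probe sets of that cluster were 10.5-fold to 15.5-fold lower, and the brightest had 772.9 in PEG and 8144.1 in water. Every bright probe set of Ta.9401 was thus lower in PEG, and in Chinese Spring their log2 ratios ran from -3.60 to -2.67. TaAffx.143997.1.S1_s_at differed between the cultivars, without a test, since it had 98.9 in PEG and 3091.8 in water in Luohan No.2 and 2271.4 in PEG and 1910.5 in water in Chinese Spring.

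Probe sets aimed at the same sequence give a measure of the noise between probe sets. Over 1299 sequences with a pair of probe sets at 100 or more on both Luohan No.2 arrays, the SD of a single log2 ratio was 0.29, and 41 pairs were over 2-fold apart. Such pairs share the RNA and the array, so this SD leaves out all variation between plants and any shift common to a whole array. Different sequences of a cluster may be homoeologues or splice forms. Each probe set past 2-fold was compared in turn with the others of its cluster. A pair with both past it in the same direction therefore counts from both sides, which raises the shares. Of 364 partners of probe sets at least 2-fold higher in Luohan No.2, 130 (35.7%) were at least 2-fold higher too. Of 821 partners of lower ones, 278 (33.9%) were lower. Of all 14675 bright probe sets, a wider base than the 4208 in such clusters, 8.03% were higher and 11.3% lower. In the same clusters, partners of probe sets chosen by their Chinese Spring ratio gave 200 of 364 and 220 of 440 there. These are other sets of partners than those of Luohan No.2. Among all 14675, 7.17% were higher and 7.51% lower in Chinese Spring.

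Side by side with Chinese Spring, 470 of the 1179 probe sets higher in Luohan No.2 (39.9%) were at least 2-fold higher there as well, against 7.17% of all 14675. These 470 were 44.7% of the 1052 that were higher in Chinese Spring. Of the 1663 lower in Luohan No.2, 426 (25.6%) were lower in Chinese Spring, against 7.51% of all, and they were 38.7% of its 1102. Opposite moves of at least 2-fold were found for 29 of those higher and 48 of those lower in Luohan No.2. The median log2 ratio of the 1179 was 1.35 in Luohan No.2 and 0.70 in Chinese Spring, and that of the 1663 was -1.45 and -0.34. These lists were chosen on the Luohan No.2 arrays, and median ratios of lists chosen on the Chinese Spring arrays were not taken. At 16-fold, 24 of the 25 higher in Luohan No.2 and 15 of the 21 lower were at least 2-fold apart in the same direction in Chinese Spring. With 1 array a group, no difference between the cultivars was tested.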

How the data were processed

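Root RNA was read on 1-colour wheat arrays, 1 array for each of 4 groups. The deposited values are intensities on a linear scale. Per the submitters' processing notes the authors used MAS5 (version not given in the sources used here). A 2% trimmed mean near 100 was found on each array, so the authors' values carry 1 scaling factor per array. Detection calls were not used here. The comparison used Luohan No.2 PEG over Luohan No.2 water: AFFX and RPTR probe sets were dropped, signals floored at 25, and log2 ratios taken in Python 3.11.15 with pandas 2.3.3. Counts are at 2-fold. A probe set is called bright at a signal of 100 or more on at least 1 of the 2 arrays. The calculation was tested on simulated data.

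Genes were named through the platform annotation and RefSeq symbols and synonyms (IWGSC CS RefSeq v2.1), by the brightest probe set. The text names genes with an informative name that were bright and at least 1.5-fold apart, members of 16 gene lists, and the 10 highest and 10 lowest locus-number genes. Of the 10 highest and 10 lowest probe sets it names only some. Other bright named genes are given as values, chosen after those were seen. No listed chaperone gene was found on the array, and the only gene found for the list of lipid enzymes, LTP3, was below the floor, as was FBP, the only one for osmoprotectants and sugar metabolism. Members and lists were chosen with earlier results of these data known. The number of arrays limits the precision.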

Additional observations from a re-analysis of the deposited data

Results flagged for a closer look

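For LOC542898 and TaAffx.52582.1.S1_x_at, the PEG responses of the cultivars ran in opposite directions by at least 1.5-fold each. For LOC542898 the log2 ratio of PEG over water was -1.83 on the Luohan No.2 arrays and 1.62 on those of Chinese Spring, and its 2 other probe sets were below the floor on all 4 arrays. TaAffx.52582.1.S1_x_at had 978.1 in PEG in Luohan No.2, 36.8-fold above water (log2 ratio 5.20), and 51.6 in PEG and 77.7 in water in Chinese Spring, or -0.59. Neither difference was tested, since each group is 1 array.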

How the results depend on the processing

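No paired analysis was possible because each group is 1 array. Over all probe sets, the 1627 higher and 2434 lower became 3099 and 3998 with a floor of 10, and 822 and 1099 with a floor of 100. Lower calls over all probe sets numbered 1214 without _x_at, _s_at and _a_at probe sets. Scaling on the hybridisation controls, chosen after the data were seen, gave 569 higher and 4901 lower. For signals of 100 or more, the 1179 higher and 1663 lower became 624 and 786 when both arrays had to reach 100, and 401 and 3371 with that scaling. The lower count was 1099 with a floor of 100 or a signal minimum of 200, and 714 without the shared kinds of probe set. The other settings (a floor of 50, a pseudocount of 25, quantile normalization, median centring, a signal minimum of 50) left these counts within 1.5 times of the main ones. For 66 genes, 579 log2 ratios were recomputed. None of those past 1.5-fold changed sign, and 141 moved by more than 0.29, the SD between probe sets of 1 sequence. Of the 141, 64 came from scaling on the hybridisation controls. That setting shifts the whole PEG array by 0.48, so those moves were fixed in advance. For Glc1 the log2 ratio of 2.05 was 1.38 with a floor of 100, and its unique probe set lay below the floor. Rab15 ranged from 2.53 to 5.05 over the floors. Faint signals, single arrays and unequal 5' signal limit what these arrays can show.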

Other observations

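The control transcripts, left out of the comparison, also report on root metabolism. By its 3' probe set, sucrose synthase, which splits sucrose for sink tissues, was 1.89-fold lower in Luohan No.2, at 2988.6 in PEG and 5639.4 in water. Chinese Spring had 5169.1 in PEG and 7736.0 in water. Glucose-6-phosphate dehydrogenase, the entry to the oxidative pentose phosphate pathway, had 1344.6 in PEG and 1323.9 in water in Luohan No.2 at its 3' end, and 1688.1 and 1049.0 in Chinese Spring. The 3' probe set of CYP86, of a family of fatty acid hydroxylases, had 109.4 in PEG and 49.6 in water, 2.21-fold higher, and 162.7 and 54.4 in Chinese Spring, while its 5' probe set was below the floor on both Luohan No.2 arrays.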
